A study of Homo sapiens with 30 samples.

Results

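The BCL2 family decides at the mitochondrion whether a cell lives or dies, and 10 of its genes were followed here through loss and return of the transcription factor FOXM1 in OPM2 and Delta47, human cell lines grown from multiple myeloma, a cancer of plasma cells. The members are the genes whose symbol is in a list of 10: the survival genes BCL2, BCL2L1 and MCL1, the BH3-only death genes BCL2L11, BMF, PMAIP1, BBC3 and BID, and the effector genes BAX and BAK1. All 10 were found in the tables of both lines, among 16407 genes for OPM2 and 17286 for Delta47, or 18159 in either, and all 10 were high enough to be tested in both lines.

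Poly-A RNA was sequenced from knockout cells, from knockout cells given a vector, and from unedited cells. OPM2 had knockout clone 1 with a FOXM1c vector (KO1R), clone 1 with an empty vector (KO1EV), the clones without a vector (KO1 and KO2) and unedited cells (WT). Delta47 had knockout clone 2 with the FOXM1c vector (KO2R), the clones without a vector (KO1 and KO2) and WT. Each of these 9 groups had 3 libraries. Exon 2 of FOXM1 was cut with Cas9 protein and guide RNA, and each knockout group descends from 1 cell, so a difference between a knockout group and WT cannot be told apart from a difference of that clone. FOXM1c, 1 of the isoforms of the gene, was delivered by a lentivirus, and the vector cells were sorted for GFP, while the unedited and untransduced groups carried no vector. The Delta47 empty-vector group was not analysed here, so KO2R is set against untransduced KO2 and that comparison holds both the vector and FOXM1c. Nothing in the labels says that the libraries of a group were separate cultures, and the spread behind each p-value may therefore be technical.

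Survival proteins of this family hold the effectors in check on the outer mitochondrial membrane. BH3-only proteins bind the survival proteins, and some of them the effectors, and so free BAX and BAK1 to open that membrane, release cytochrome c and start the caspases. Plasma cells and many myelomas depend on MCL1, and BCL2 is a drug target that has been tried in myeloma. Transcript levels do not measure the proteins, several of which, MCL1 above all, turn over quickly.

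The windows before the start sites of the 3 members on which most of the results below turn, BCL2L11, BMF and BCL2, are shown because FOXM1 is a forkhead factor. They hold the 250 bases before the start, read 5′ to 3′ on the strand of the gene, from RefSeq on GRCh38.p14, at chr2:111120664-111120913 (plus strand) for BCL2L11, chr15:40108880-40109129 (minus strand) for BMF and chr18:63319770-63320019 (minus strand) for BCL2. Capitals mark the only match to the forkhead core GTAAACA.
BCL2L11: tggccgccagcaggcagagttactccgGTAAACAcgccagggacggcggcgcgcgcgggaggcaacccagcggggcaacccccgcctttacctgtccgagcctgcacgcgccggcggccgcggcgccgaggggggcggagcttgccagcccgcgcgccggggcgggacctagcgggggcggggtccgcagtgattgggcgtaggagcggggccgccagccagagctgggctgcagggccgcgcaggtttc
BMF: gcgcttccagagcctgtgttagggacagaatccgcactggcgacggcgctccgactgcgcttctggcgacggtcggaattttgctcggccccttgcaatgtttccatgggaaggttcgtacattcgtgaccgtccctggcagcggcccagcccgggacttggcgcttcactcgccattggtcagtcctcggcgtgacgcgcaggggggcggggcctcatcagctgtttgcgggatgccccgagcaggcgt
BCL2: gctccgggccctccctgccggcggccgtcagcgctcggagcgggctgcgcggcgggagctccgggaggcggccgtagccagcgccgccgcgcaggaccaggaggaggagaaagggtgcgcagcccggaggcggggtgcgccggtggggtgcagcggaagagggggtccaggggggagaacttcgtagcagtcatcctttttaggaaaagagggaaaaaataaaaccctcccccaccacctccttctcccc
RefSeq windows were matched for 9 of the 10 members, MCL1 being the other one, and gave 15 windows. The letters GTAAACA, searched on both strands (reverse TGTTTAC), stood in the windows of 1 member, BCL2L11, where the match starts 223 bases before the start site. The same letters stood in 1046 of 35116 windows of all genes (2.98%). The letters TTTGAA (reverse TTCAAA), the core of the cell cycle homology region found in late cell cycle promoters, stood in no member's window and in 4677 windows of all genes (13.3%), and neither motif contains the other. These are matches of letters in short windows, and no binding was measured.

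Values for OPM2 were FPKM, fragments scaled to transcript length and library size. Those for Delta47 had no named unit, are called the authors' value here, and scaled with transcript length about as FPKM does: the slope of the log2 ratio of Delta47 to OPM2 WT values on log2 length was −0.099 over 9468 genes. No read counts were available, so depth is unknown. Tests ran across all 10309 genes tested in OPM2 and 11001 in Delta47 on log2(value + 1), which understates the change of low genes; a gene was called at a Benjamini-Hochberg adjusted p below 0.05 in limma, and errors of log2 fold changes are standard errors (SE) of that fit. All 7 plasma cell markers were present, summing to 2262 to 3053 FPKM in OPM2 and 1274 to 1414 in Delta47. B cell, T cell and myeloid marker sums stayed at or below 2.16 in every library. In Delta47 the epithelial list reached 12.9, of which KRT18 made up to 7.65 and EPCAM up to 5.72. The stromal and endothelial list reached 15.9 there, of which PECAM1 made up to 15.6. Their part in the results was not tested. FOXM1 transcript averaged 92.1 FPKM in KO1, 62.1 in KO2 and 175.9 in WT of OPM2, and 48.0, 46.2 and 88.9 in the same groups of Delta47; it averaged 277.5 FPKM in KO1R against 106.7 in KO1EV, and 99.4 in KO2R.

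A pair of OPM2 libraries, KO2 replicate 3 and KO1EV replicate 3, stood apart from the other replicates of their groups. In both of them the same BH3-only genes were low and the same effectors high. KO2 replicate 3 lay below the mean of its other 2 replicates by log2 −1.24 for PMAIP1, −1.11 for BMF, −0.84 for BBC3 and −0.74 for BCL2, and above it by 1.05 for BID, 0.87 for BAX and 0.72 for BAK1. KO1EV replicate 3 deviated by −1.14 for PMAIP1, −0.74 for BBC3, −0.53 for BMF and −0.26 for BCL2, and by 0.36 for BAK1, 0.28 for BID and 0.23 for BAX. Over all tested genes the SD of such deviations was 0.533 in KO2 replicate 3 and 0.271 in KO1EV replicate 3. Member calls that the pair changes are therefore given with and without it. Their wide spread also enters every OPM2 test, because 1 estimate of the spread is shared by all groups.

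**Figure D1:**
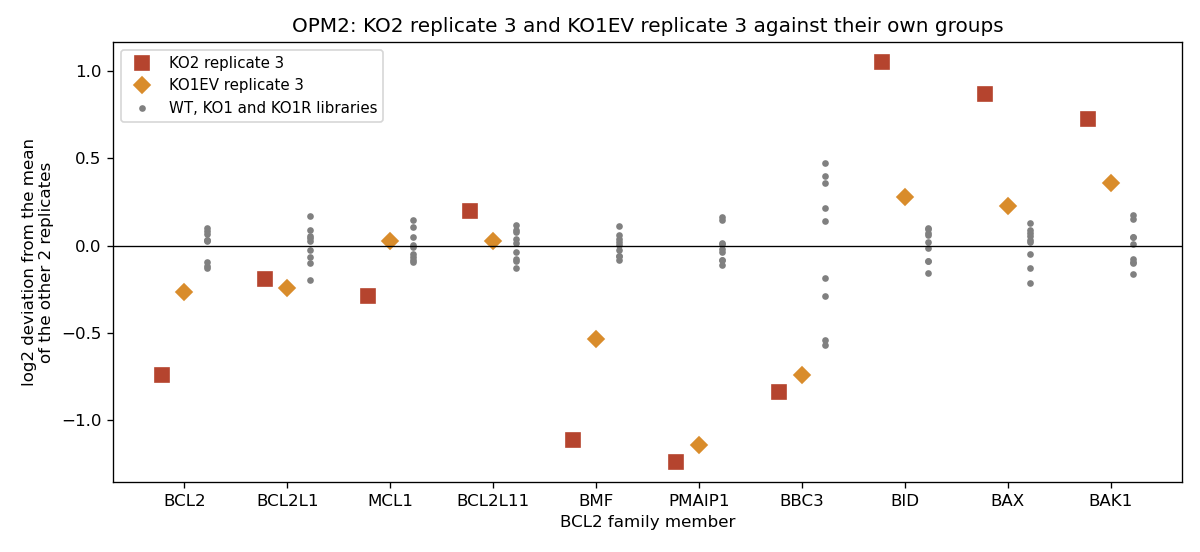
Deviation of OPM2 libraries from the mean of the other 2 replicates of their group, on the log2(value + 1) scale, for the 10 members. Replicates 1 and 2 of KO2 and KO1EV are not drawn. Their deviations, from means that hold replicate 3, reached 0.69 for PMAIP1 and −0.66 for BID in KO2 replicate 2. Squares (KO2 replicate 3) and diamonds (KO1EV replicate 3) lie below 0 for BCL2, BCL2L1, BMF, PMAIP1 and BBC3 and above 0 for BCL2L11, BID, BAX and BAK1, while the WT, KO1 and KO1R libraries (grey) stay near 0 except for BBC3, the lowest member.

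In unedited cells both lines were richest in MCL1, and they differed in the order of the other members. On the FPKM scale the WT means of OPM2 ran from MCL1 (99.4) through BAK1 (49.0), BMF (42.3), BAX (30.6), BCL2 (29.9), PMAIP1 (26.8), BCL2L1 (16.7), BCL2L11 (14.6) and BID (6.09) to BBC3 (1.58). The libraries of BAX and BCL2, and of BCL2 and PMAIP1, overlapped, and those of all other neighbours in that order did not. In Delta47 WT, in the authors' value, the order was MCL1 (123.1), BAX (88.8), BCL2L11 (60.4), BAK1 (47.1), BID (24.9), BCL2L1 (13.9), PMAIP1 (9.49), BBC3 (5.62), BCL2 (5.12) and BMF (4.06), and BBC3 and BCL2 alone overlapped. Only MCL1 and BAK1 exceeded BMF in OPM2, whereas BMF was the lowest of the 10 in Delta47. The tables were made separately, so levels were not tested between the lines.

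**Figure D2:**
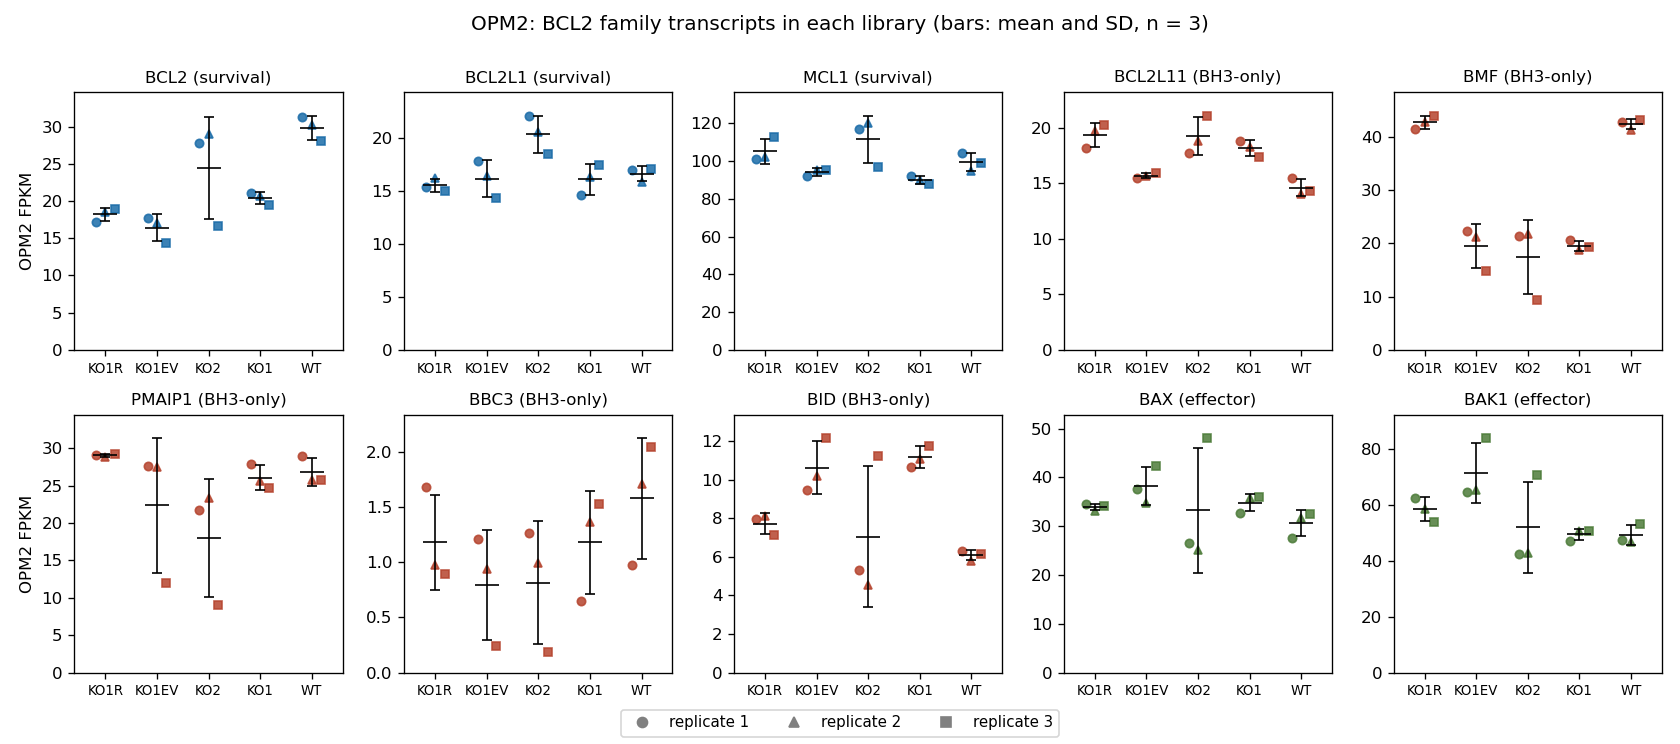
FPKM of the 10 members in each OPM2 library (circles, triangles and squares for replicates 1, 2 and 3), with mean and SD as bars, n = 3 per group; groups run KO1R, KO1EV, KO2, KO1 and WT, and each panel has its own axis starting at 0. BMF stands at 41.5 to 44.0 in KO1R and 41.2 to 43.1 in WT, and at 9.39 to 22.4 in KO1EV, KO2 and KO1.

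BMF and BCL2L11 changed the same way in all 4 knockout clones: BMF was lower and BCL2L11 higher than in WT. Of the 10 members, 1 was called lower and 1 higher in every clone. The share of all tested genes called the same way in all 4 clones was not worked out. The 4 comparisons share their WT group within a line, so the clones of a line are not independent. Of all tested genes, 6.72% were called lower and 14.5% higher in OPM2 KO1, 7.82% and 6.54% in OPM2 KO2, 23.7% and 28.9% in Delta47 KO1, and 15.2% and 28.4% in Delta47 KO2.

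BMF encodes a BH3-only protein that is held on the cytoskeleton until it is set free. In OPM2 its level was 20.6, 18.7 and 19.3 FPKM in KO1 and 21.3, 21.7 and 9.39 in KO2, against 42.7, 41.2 and 43.1 in WT. Every knockout library lay below every WT library, and the lowest was KO2 replicate 3. The log2 fold change was −1.08 ± 0.23 for KO1 (adjusted p = 0.00605), with −1.32 ± 0.23 for KO2 (adjusted p = 0.00184), and without the pair of libraries that stood apart it was −1.08 and −0.95. The KO2 call was lost when only KO2 and WT were fitted (adjusted p = 0.0755). In Delta47, where BMF was the lowest member in WT, it had 2.17, 2.11 and 2.68 in KO1 and 2.60, 2.39 and 2.57 in KO2, against 3.74, 4.25 and 4.19 in WT. Here too no knockout library reached the WT range, and BMF of clone KO1 fell by 0.61 ± 0.07 on the log2 scale (adjusted p = 4.74e-06), and that of KO2 fell by 0.52 ± 0.07 (adjusted p = 3.02e-05). The antisense gene BMF-AS1 overlaps an exon of BMF in the GENCODE annotation, and since strand use is not stated, reads of the pair cannot be told apart.

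BCL2L11 encodes BIM, a BH3-only protein that can bind all the survival proteins of the family. In OPM2 it had 18.8, 18.3 and 17.4 FPKM in KO1 and 17.7, 18.8 and 21.1 in KO2, against 15.5, 14.04 and 14.3 in WT. All knockout libraries lay above all WT libraries, with log2 fold changes of 0.30 ± 0.07 for KO1 (adjusted p = 0.0101), and of 0.37 ± 0.07 for KO2 (adjusted p = 0.00296). Without the pair of libraries that stood apart it was 0.30 (adjusted p = 0.000192) and 0.31 (adjusted p = 0.000625). The KO2 call was lost when only KO2 and WT were fitted (adjusted p = 0.101). Delta47 carried more BCL2L11 for its MCL1 than OPM2, with 82.0, 85.01 and 82.4 in KO1 and 86.7, 82.4 and 86.1 in KO2, against 60.2, 62.4 and 58.6 in WT. The clones again did not overlap with WT, and BCL2L11 rose by 0.45 ± 0.04 (adjusted p = 6.69e-08, KO1) and 0.49 ± 0.04 (adjusted p = 2.89e-08, KO2). Within each library, BCL2L11 over MCL1 was 0.913 ± 0.036 in Delta47 KO1 and 1.04 ± 0.02 in KO2, against 0.491 ± 0.020 in WT (SD, n = 3), so that transcripts of the pair were near parity in the clones; in OPM2 the ratio was 0.202 in KO1 and 0.152, 0.156 and 0.217 in the KO2 libraries, the high one being replicate 3, against 0.147 in WT. The mean of KO2 without that replicate was 0.154. MIR4435-2HG overlaps an exon of BCL2L11 on the opposite strand, with the same limit on the reads.

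BMF was higher with the FOXM1c vector in OPM2 and lower with it in Delta47. In OPM2, KO1R libraries had 41.5, 42.7 and 44.0 FPKM, against 22.4, 21.2 and 14.7 in KO1EV, the lowest of these being the replicate that stood apart. BMF was thus higher in KO1R by log2 1.12 ± 0.23 (adjusted p = 0.00971), or 0.94 without the pair of libraries, and KO1R did not differ from WT by a called amount (0.01 ± 0.23, adjusted p = 0.979; interval −0.49 to 0.52). The empty vector itself gave no called difference of BMF from KO1 (−0.03 ± 0.23), but without the pair of libraries it was called higher (0.15, adjusted p = 0.0283). In Delta47, KO2R libraries had 1.84, 1.94 and 1.98, below all of 2.60, 2.39 and 2.57 in KO2, a fall of 0.27 ± 0.07 (adjusted p = 0.00515) that took BMF further from WT (−0.79 ± 0.07, adjusted p = 1.06e-07). That fall was not called with each library centred on its median (−0.17, adjusted p = 0.0502) or with the transcript length trend removed (−0.13, adjusted p = 0.122). Longer transcripts were lower in KO2R than in KO2 across genes (Spearman rho −0.475, over genes that are not independent).

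BCL2L11 did not go back to the WT level with the FOXM1c vector in either line. In OPM2 it had 18.2, 19.7 and 20.2 FPKM in KO1R, against 15.5, 15.7 and 15.9 in KO1EV. It was therefore higher with FOXM1c by 0.29 ± 0.07 (adjusted p = 0.0239), the same direction as in the clones, and above WT by 0.38 ± 0.07 (adjusted p = 0.0025). The call against KO1EV was lost without 5 of the 6 libraries in turn (adjusted p between 0.0353 and 0.095), and held without the pair that stood apart (0.29, adjusted p = 0.00173). KO1EV itself lay wholly below KO1, which had 17.4 to 18.8 FPKM. That difference of the empty vector was not called over all libraries (−0.20 ± 0.07, adjusted p = 0.13) and was called without the pair (−0.21, adjusted p = 0.0133). In Delta47 it had 72.1, 76.7 and 71.4 in KO2R, against 86.7, 82.4 and 86.1 in KO2, which was a fall of 0.21 ± 0.04 (adjusted p = 0.000161), and remained above WT by 0.28 ± 0.04 (adjusted p = 7.8e-06). With the length trend removed the fall was −0.05 (adjusted p = 0.328).

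**Figure D3:**
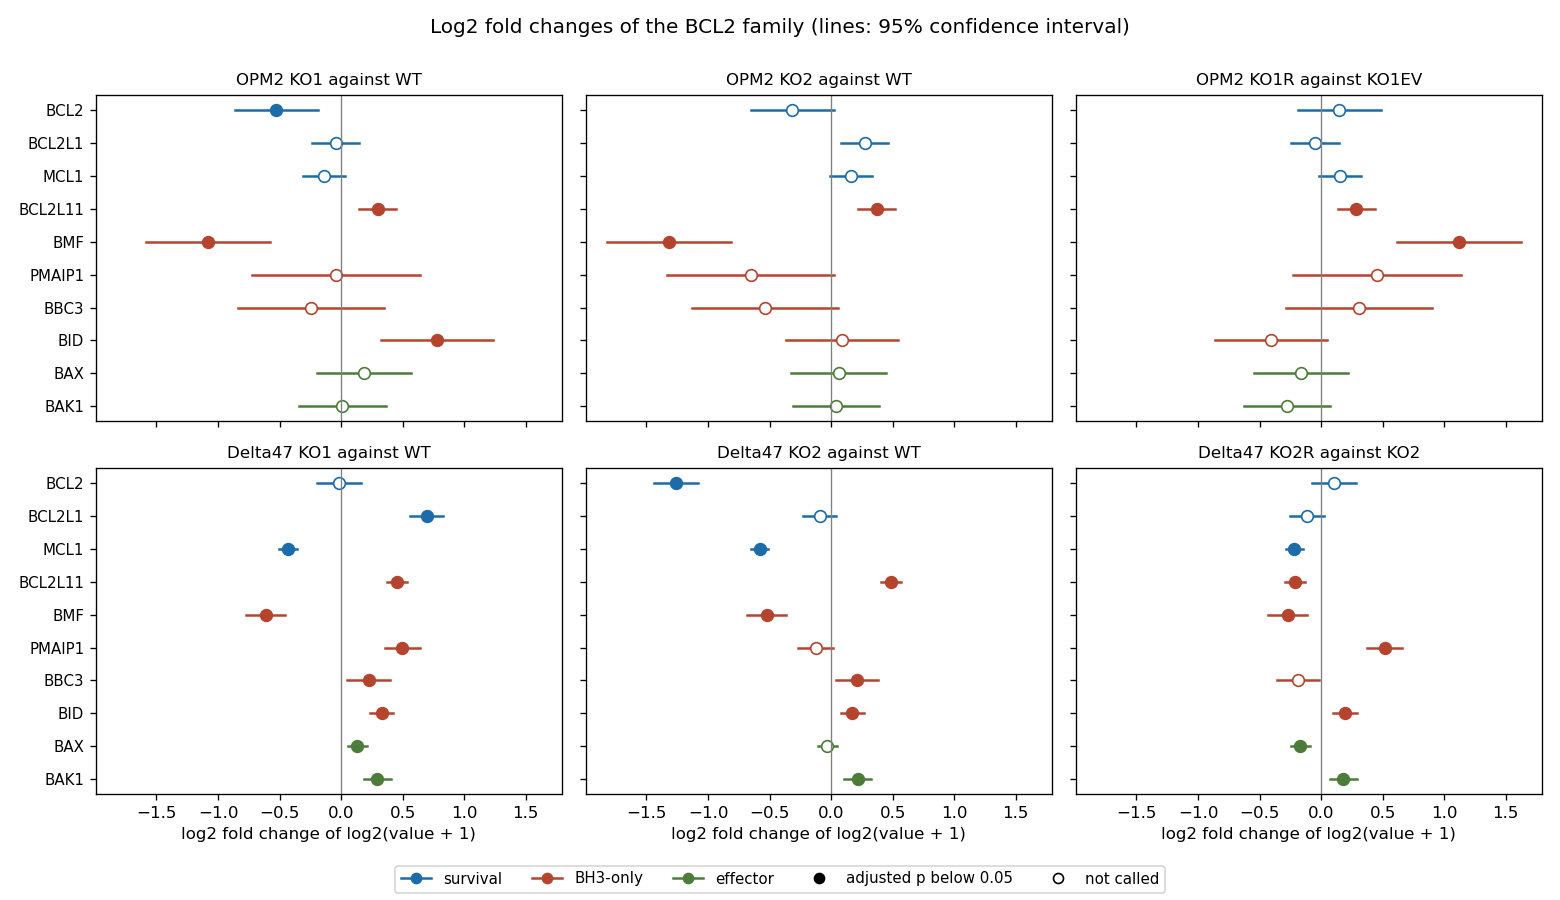
Log2 fold change of each member on the log2(value + 1) scale (point) with its 95% confidence interval (line) in 6 comparisons; filled points were called at an adjusted p below 0.05. BMF lies left of 0 and BCL2L11 right of 0 in all 4 clone panels, and in the vector panels (right) BMF is at 1.12 in OPM2 KO1R against KO1EV and at −0.27 in Delta47 KO2R against KO2.

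Among the survival genes, BCL2 was low in 1 clone of each line. BCL2, the target of venetoclax, had 21.1, 20.7 and 19.5 FPKM in OPM2 KO1 and 27.9, 28.96 and 16.6 in KO2, against 31.3, 30.3 and 28.0 in WT. KO1 lay wholly below WT (−0.53 ± 0.16, adjusted p = 0.0302), and that call was lost without any 1 of the 6 libraries (adjusted p between 0.0554 and 0.0946) but held without the pair that stood apart (adjusted p = 5.86e-07). In KO2 the low value was replicate 3, and the difference was not called with it (−0.31, adjusted p = 0.213) or without the pair (−0.07, adjusted p = 0.365). In Delta47, BCL2 had 5.01, 4.79 and 5.37 in KO1 and 1.57, 1.43 and 1.67 in KO2, against 5.39, 4.92 and 5.04 in WT. KO1 overlapped WT (−0.01 ± 0.08, adjusted p = 0.896), while KO2 stood at 0.304 times the WT mean (log2 −1.26 ± 0.08, adjusted p = 4.4e-09), the widest spread of group means of any member in that line. The vectors left BCL2 below WT: KO1R had 17.2, 18.5 and 19.0 FPKM (−0.68 ± 0.16 against WT, adjusted p = 0.0105; 0.15 against KO1EV, adjusted p = 0.581), and KO2R had 1.36, 1.96 and 1.96 (−1.16 ± 0.08 against WT, adjusted p = 5.42e-09; 0.10 against KO2, adjusted p = 0.3). The last difference was called with median centring (0.20, adjusted p = 0.0355), with the length trend removed (0.34, adjusted p = 0.000732) and without KO2R replicate 1 (0.21, adjusted p = 0.0206).

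MCL1 was lower than in WT in both Delta47 clones, and was not called in either OPM2 clone. Delta47 had 91.4, 89.0 and 92.7 in KO1 and 82.7, 81.4 and 81.8 in KO2, against 126.3, 121.6 and 121.4 in WT. MCL1 fell by 0.43 ± 0.03 on the log2 scale (adjusted p = 2.07e-08, KO1), and fell by 0.58 ± 0.03 (adjusted p = 5.17e-10, KO2). MCL1 was not back at the WT level with the FOXM1c vector. KO2R had 68.3, 71.1 and 71.6, a further 0.22 ± 0.03 below untransduced KO2 (adjusted p = 2.64e-05). In OPM2, KO1R had 100.9, 101.9 and 112.5 FPKM of MCL1, above all of 92.0, 95.1 and 95.4 in KO1EV, with no call (0.15 ± 0.08, adjusted p = 0.255) unless the pair was left out (0.16, adjusted p = 0.0277). In the OPM2 clones, MCL1 had 92.1, 90.2 and 88.0 FPKM in KO1 and 117.0, 120.4 and 97.0 in KO2, against 104.3, 94.97 and 98.9 in WT. KO1 lay below WT and KO2 overlapped it (−0.14, adjusted p = 0.206, and 0.16, adjusted p = 0.211). Without the pair of libraries both were called, in opposite directions (KO1 −0.14 with adjusted p = 0.0166, KO2 0.25 with adjusted p = 0.000936). ADAMTSL4-AS1 overlaps an exon of MCL1 on the same strand, so reads of the overlap cannot be told apart by strand.

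BCL2L1, which encodes BCL-XL, was called higher in Delta47 KO1 and was called in none of the other 3 clones over all libraries. It had 22.7, 24.2 and 22.3 in Delta47 KO1 and 12.4, 13.7 and 12.6 in KO2, against 12.3, 14.8 and 14.6 in WT. KO1 lay above every other Delta47 library (0.70 ± 0.06 against WT, adjusted p = 1.71e-07), and KO2 overlapped WT (−0.09, adjusted p = 0.248). The KO2 difference was called lower without WT replicate 1 (−0.17, adjusted p = 0.0232) and with the length trend removed (−0.16, adjusted p = 0.0455). In OPM2 the levels were 14.6, 16.3 and 17.5 FPKM in KO1 and 22.1, 20.5 and 18.5 in KO2, against 17.0, 15.9 and 17.1 in WT. KO2 lay above WT without a call (0.27 ± 0.09, adjusted p = 0.058), and it was called without the pair of libraries (0.34, adjusted p = 0.00108). ABALON overlaps an exon of BCL2L1 on the opposite strand.

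The balance of the survival transcripts therefore differed between the Delta47 clones. BCL2 over MCL1, as a ratio within each library, was 0.0555 ± 0.0022 in Delta47 KO1, 0.0190 ± 0.0014 in KO2 and 0.0249 ± 0.0044 in KO2R, against 0.0416 ± 0.0011 in WT (SD, n = 3). BCL2L1 over MCL1 was 0.254 ± 0.016 in KO1, 0.158 ± 0.010 in KO2 and 0.169 ± 0.009 in KO2R, against 0.113 ± 0.014 in WT. In OPM2, BCL2 over MCL1 was 0.227 in KO1 and 0.174 in KO1R, against 0.301 in WT. It was 0.238, 0.241 and 0.171 in the KO2 libraries and 0.193, 0.180 and 0.150 in those of KO1EV, with replicate 3 lowest in both groups (means without it 0.239 and 0.186). These ratios were not tested.

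PMAIP1, BBC3 and BID, the other BH3-only genes, moved differently in the clones. PMAIP1 encodes NOXA, which binds mainly MCL1, and in Delta47 it had 14.7, 12.7 and 14.1 in KO1 and 8.50, 8.52 and 8.83 in KO2, against 9.25, 9.89 and 9.34 in WT. It rose in KO1 (0.50 ± 0.07, adjusted p = 1.26e-05) and was not called in KO2 (−0.13, adjusted p = 0.141), where median centring gave a call (−0.18, adjusted p = 0.0304). With the FOXM1c vector it had 12.2, 11.9 and 14.3 in KO2R, above every KO2 library (0.52 ± 0.07, adjusted p = 5.12e-06) and above WT (0.39 ± 0.07, adjusted p = 6.84e-05). In OPM2, PMAIP1 stayed between 21.7 and 29.2 FPKM in every library except the pair that stood apart, at 8.98 in KO2 replicate 3 and 12.0 in KO1EV replicate 3, and it was called in no OPM2 comparison over all libraries. Without that pair it was called lower in KO2 than in WT (−0.24, adjusted p = 0.00493).

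BID encodes a protein that death receptor caspases cut into its active form. It had 10.7, 11.1 and 11.8 FPKM in OPM2 KO1 and 5.32, 4.56 and 11.3 in KO2, against 6.32, 5.80 and 6.16 in WT. It rose in KO1 (0.78 ± 0.21, adjusted p = 0.0197), a call lost without 5 of the 6 libraries in turn (adjusted p between 0.046 and 0.0652) and kept without the pair that stood apart (adjusted p = 1.16e-07). In KO2 the direction hung on replicate 3: the log2 fold change was 0.09 (adjusted p = 0.816) with it and −0.26 (adjusted p = 0.01) without the pair. KO1R had 7.97, 8.10 and 7.12 FPKM, below all KO1EV libraries (9.49, 10.2 and 12.2), with no call in the fit of all groups (−0.41 ± 0.21, adjusted p = 0.262). It was called lower with the pair left out (−0.32, adjusted p = 0.00504) and when only KO1R and KO1EV were fitted (−0.41, adjusted p = 0.0327). In Delta47, BID rose in both clones, by 0.33 ± 0.05 (adjusted p = 1.85e-05, KO1) and 0.17 ± 0.05 (adjusted p = 0.00583, KO2), and was higher in KO2R than in KO2 (0.19 ± 0.05, adjusted p = 0.00175); the KO2 call was lost with median centring (0.12, adjusted p = 0.081) and with the length trend removed (0.11, adjusted p = 0.0634). Its means were 31.4 ± 1.03 in KO1, 28.1 ± 1.04 in KO2, 32.3 ± 1.00 in KO2R and 24.9 ± 1.27 in WT (SD, n = 3).

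BBC3 encodes PUMA, a BH3-only protein that binds all the survival proteins of the family. It was the lowest member in OPM2, at 0.19 to 2.05 FPKM over all libraries, and its groups overlapped in every OPM2 comparison. In Delta47 it had 7.46, 5.84 and 6.95 in KO1 and 6.47, 7.22 and 6.34 in KO2, against 5.28, 5.88 and 5.70 in WT. KO2 lay above WT and KO1 overlapped it. The calls were close to the threshold, at 0.22 ± 0.08 (adjusted p = 0.0292) for KO1 and 0.21 ± 0.08 (adjusted p = 0.0425) for KO2, and leaving out single libraries gave adjusted p up to 0.149 and 0.168. Both calls were also lost with no filter on low values and with the length trend removed (0.10, adjusted p = 0.306, and 0.15, adjusted p = 0.127). KO2R had 6.30, 5.25 and 5.70, below every KO2 library with no call (−0.19 ± 0.08, adjusted p = 0.0548), and overlapped WT (0.03, adjusted p = 0.786). The difference from KO2 was called with the length trend removed (−0.30, adjusted p = 0.0032). It was also called when only KO2R and KO2 were fitted (adjusted p = 0.0461) and without KO2R replicate 1 (adjusted p = 0.0242).

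Of the effectors, BAK1 rose in both Delta47 clones and BAX in KO1, by small amounts. BAK1, whose protein sits on the mitochondrial membrane of living cells, had 58.2, 61.5 and 54.3 in Delta47 KO1 and 56.7, 52.2 and 55.6 in KO2, against 45.4, 48.4 and 47.4 in WT. All clone libraries were above WT (0.29 ± 0.05, adjusted p = 0.000162, and 0.22 ± 0.05, adjusted p = 0.00275). BAX, whose protein moves to the mitochondrion on a death signal, had 100.3, 95.9 and 95.8 in KO1 and 86.7, 86.2 and 87.7 in KO2, against 84.99, 87.98 and 93.5 in WT. KO1 was higher (0.13 ± 0.04, adjusted p = 0.00728), a change that turned to −0.03 (adjusted p = 0.517) with the length trend removed, and KO2 was not called (−0.03) unless the length trend was removed, when it was called lower (−0.09, adjusted p = 0.0479). In KO2R the pair parted: BAK1 was higher than in KO2 (0.18 ± 0.05, adjusted p = 0.00619) and BAX lower (−0.17 ± 0.04, adjusted p = 0.000921). The BAK1 call was lost with the length trend removed (0.12, adjusted p = 0.0578), and the BAX call with median centring (−0.07, adjusted p = 0.154). BAX over BAK1 within a library was 1.24 ± 0.09 in KO2R and 1.58 ± 0.06 in KO2, against 1.89 ± 0.08 in WT (SD, n = 3).

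In OPM2, neither effector was called in any comparison over all libraries. BAK1 had 47.2, 50.5 and 50.4 FPKM in KO1 and 42.5, 42.5 and 70.7 in KO2, against 47.2, 46.8 and 53.1 in WT. BAX had 32.8, 35.7 and 36.0 in KO1 and 26.6, 25.1 and 48.0 in KO2, against 27.5, 31.8 and 32.4 in WT. The high KO2 value of both is replicate 3, and without the pair of libraries both were called lower in KO2 than in WT (−0.20, adjusted p = 0.019, for BAK1 and −0.23, adjusted p = 0.0118, for BAX), and BAX higher in KO1 (0.19, adjusted p = 0.0144). With the empty vector, BAK1 had 64.6, 65.4 and 83.7 FPKM, above all KO1 libraries (0.51 ± 0.16, adjusted p = 0.0975). That difference was called without the pair (0.39, adjusted p = 0.000369), and in KO1R, at 62.5, 58.4 and 53.9, BAK1 remained above every KO1 library. KO1R lay below all KO1EV libraries with no call, over all libraries (−0.28 ± 0.16, adjusted p = 0.321) or without the pair (−0.16, adjusted p = 0.077). GGNBP1 overlaps an exon of BAK1 on the opposite strand.

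**Figure D4:**
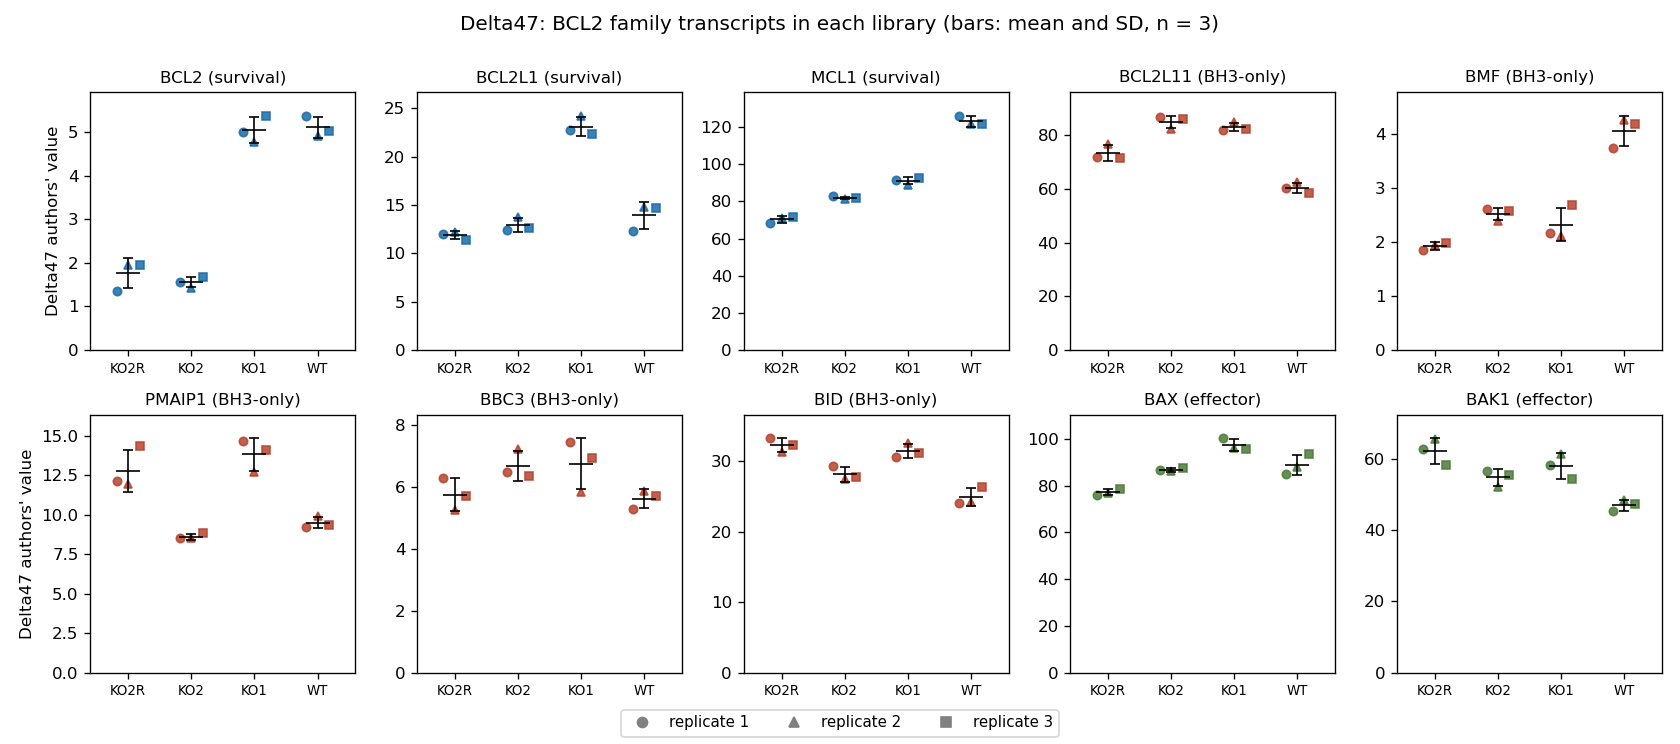
The authors' value of the 10 members in each Delta47 library (circles, triangles and squares for replicates 1, 2 and 3), with mean and SD as bars, n = 3 per group; groups run KO2R, KO2, KO1 and WT, and each panel has its own axis starting at 0. BCL2 lies at 1.36 to 1.96 in KO2R and KO2 and at 4.79 to 5.39 in KO1 and WT, and BCL2L1 is highest in KO1.

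Counts over the family are set beside the share of all tested genes called in the same direction. In KO1 against WT of OPM2, 2 members were higher and 2 lower, beside 14.5% and 6.72% of all tested genes, and the median log2 fold change of the members was −0.04, beside 0.07 over all tested genes. In KO2, 1 was higher and 1 lower, beside 6.54% and 7.82% (medians 0.05 and 0.02). KO1R against KO1EV gave 2 higher and none lower, beside 3.1% and 5.12% (medians 0.15 and −0.06), with no member lower at an unadjusted p below 0.05 in limma either. KO1R against WT gave 1 higher and 1 lower, beside 6.38% and 8.29%. KO1EV against KO1 gave none in limma, beside 1.78% higher and 3.17% lower of all tested genes, and 2 members at an unadjusted p below 0.05, BAK1 and BCL2L11. In Delta47 KO1, 7 members were higher and 2 lower than in WT, beside 28.9% and 23.7% (medians 0.26 and 0.02). In Delta47 KO2, 4 were higher and 3 lower, beside 28.4% and 15.2% (medians −0.06 and 0.05). KO2R against KO2 gave 3 higher and 4 lower, beside 25.2% and 36.8%, and KO2R against WT 4 higher and 5 lower, beside 34.2% and 34.9%. Several of these splits moved with the scaling of Delta47. With the length trend removed, KO1 had 5 higher and 2 lower members against WT, KO2 had 2 higher and 6 lower against WT, and KO2R had 3 higher and 3 lower against KO2. With median centring, KO2 had 2 higher and 4 lower against WT, and KO2R had 4 higher and 2 lower against KO2.

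With the pair of OPM2 libraries left out, more members and more genes in all were called. Of the 10 members, 3 were higher and 3 lower in KO1 than in WT, beside 38% and 20.9% of all tested genes, and 3 were higher and 5 lower in KO2 than in WT, beside 19.3% and 21.9%. KO2 against KO1 gave 4 higher and 4 lower, beside 25% and 42.7%. KO1EV against KO1 gave 2 higher and 2 lower, beside 12.6% and 19.4%. BCL2 was among those lower (−0.22, adjusted p = 0.00976), with −0.30 and no call over all libraries (adjusted p = 0.341). KO1R gave 3 higher and 1 lower against KO1EV, beside 9.25% and 17.2%, and 3 higher and 1 lower against WT, beside 21.8% and 22.7%. Those higher than in WT included BID (0.30, adjusted p = 0.00169) and BAK1 (0.24, adjusted p = 0.00239). Over all libraries neither was called against WT (adjusted p = 0.396 and 0.363).

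The clones of a line differed from each other in several members. In OPM2, BCL2L1 (0.32 ± 0.09, adjusted p = 0.0162) and MCL1 (0.30 ± 0.08, adjusted p = 0.0116) were higher and BID lower (−0.69 ± 0.21, adjusted p = 0.025) in KO2 than in KO1, beside 10.8% of all tested genes higher and 19.1% lower. Without the pair of libraries these 3 kept their directions and calls (0.38, 0.39 and −1.04). All 3 calls were lost when only KO2 and KO1 were fitted (adjusted p = 0.105 for BCL2L1, 0.122 for MCL1 and 0.174 for BID) and without KO2 replicate 1 (0.0755, 0.0535 and 0.105). The BID call was lost without 5 of the 6 libraries in turn, and its difference then ran between −0.72 and −0.47 (adjusted p up to 0.116). Without KO2 replicate 3 the BID call was kept, at −1.04 (adjusted p = 4.1e-07). The BCL2L1 call was also lost without KO1 replicate 1 (adjusted p = 0.0735) and the MCL1 call without KO2 replicate 2 (adjusted p = 0.0575). In Delta47 no member was higher in KO2 than in KO1, at an adjusted or an unadjusted p below 0.05 in limma, and 6 were lower, beside 24.9% and 17.2% of all tested genes. BCL2 (−1.24 ± 0.08, adjusted p = 1.64e-08), BCL2L1 (−0.79 ± 0.06, adjusted p = 1.12e-07) and PMAIP1 (−0.62 ± 0.07, adjusted p = 2.58e-06) differed most, while BAX, BID and MCL1 differed by −0.16, −0.16 and −0.15. The BAX call was lost with the length trend removed (−0.06, adjusted p = 0.183), and that of BID without KO2 replicate 2 or KO1 replicate 2 (adjusted p = 0.0546 and 0.0581). BMF and BCL2L11 were called in neither contrast of the clones over all libraries; BMF differed by −0.24 in OPM2 (interval −0.74 to 0.27) and by 0.09 in Delta47 (interval −0.07 to 0.25), and BCL2L11 by 0.07 (−0.08 to 0.23) and 0.03 (−0.05 to 0.11). In OPM2, BCL2L11 was called higher in KO2 than in KO1 with the length trend removed (0.16, adjusted p = 0.0474), and BMF without the pair of libraries (0.13, adjusted p = 0.0251). Without the pair, BCL2 was also called higher in OPM2 KO2 than in KO1 (0.46, adjusted p = 4.13e-06). BAX (−0.41, adjusted p = 5.35e-05), PMAIP1 (−0.20, adjusted p = 0.00856) and BAK1 (−0.21, adjusted p = 0.00793) were then called lower. Over all libraries none of these was called.

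Other genes of the apoptosis pathway, 55 relatives, caspases, inhibitors, receptors and regulators of which 47 were tested in OPM2 and 46 in Delta47, gave no gene called the same way in all 4 clones by limma, and none at an unadjusted p below 0.05. The share of all tested genes called the same way in all 4 clones was not worked out, so none cannot be read as few. Of the list, 6 were higher and 3 lower in OPM2 KO1 than in WT, beside 14.5% and 6.72% of all tested genes, and 3 were higher and 5 lower in OPM2 KO2, beside 6.54% and 7.82%. The median of the list was 0.04 and 0.02, beside 0.07 and 0.02 over all tested genes. In Delta47 KO1 10 were higher and 17 lower, beside 28.9% and 23.7%, and in KO2 11 were higher and 4 lower, beside 28.4% and 15.2% (medians −0.02 and 0.03, beside 0.02 and 0.05). In KO1R 1 was higher and none lower than in KO1EV, beside 3.1% and 5.12%, with 4 lower at an unadjusted p below 0.05 in limma, and in KO2R 16 were higher and 16 lower than in KO2, beside 25.2% and 36.8%. KO1EV against KO1 gave none, beside 1.78% and 3.17%, with 6 at an unadjusted p below 0.05. KO2 against KO1 gave 5 higher and 11 lower in OPM2, beside 10.8% and 19.1%, and 15 higher and 7 lower in Delta47, beside 24.9% and 17.2%. Without the pair of OPM2 libraries the list gave 16 higher and 11 lower in KO1 than in WT, 14 and 10 in KO2 than in WT, 20 and 22 in KO2 than in KO1, 10 and 6 in KO1EV than in KO1, and 7 and 7 in KO1R than in KO1EV, beside the larger shares of all tested genes given above for that setting.

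The genes of that list with the smallest adjusted p differed between comparisons. In OPM2 KO1, the BH3-only gene BIK averaged 1.96 ± 0.41 FPKM, against 0.88 ± 0.36 in WT (0.66, adjusted p = 0.00986), the survival relative BCL2L2 was higher (0.38, adjusted p = 0.0141) and the initiator caspase gene CASP10 lower (−0.32, adjusted p = 0.0111). In OPM2 KO2, BCL2L13 averaged 14.04 ± 0.41 FPKM, against 10.8 ± 0.22 in WT (0.34, adjusted p = 0.000555), while CASP2 (−0.55, adjusted p = 0.00892) and the inhibitor of apoptosis BIRC2 (−0.36, adjusted p = 0.00957) were lower. KO2 also differed from KO1 in BCL2L13 (0.40), CASP2 (−0.93) and FOXO1 (−0.35, adjusted p = 0.00171). FAS, a death receptor gene, averaged 1.39 ± 0.12 FPKM in KO1R, against 0.86 ± 0.25 in KO1EV and 0.57 ± 0.09 in WT (0.37, adjusted p = 0.0306, and 0.61, adjusted p = 0.00077). BCL2L2 (0.42) and the chaperone partner gene BAG3 (0.35) were also higher in KO1R than in WT. Without the pair of libraries each of these OPM2 differences kept its direction and call, with CASP2 at −0.74 against WT and −1.11 against KO1, BIRC2 at −0.28, and FAS at 0.27 against KO1EV (adjusted p = 0.0394).

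In Delta47, HUWE1, which encodes a ubiquitin ligase that marks MCL1 for breakdown, averaged 9.89 ± 0.22 in KO1, 15.4 ± 0.69 in KO2 and 8.61 ± 0.59 in KO2R, against 16.9 ± 0.57 in WT. It was lower in KO1 than in WT (−0.71, adjusted p = 1.91e-08) and lower in KO2R than in KO2 (−0.77, adjusted p = 7.11e-09), and was not called in KO2 (−0.12, adjusted p = 0.0806). BIRC5, which encodes survivin, was higher in KO2R (0.62 against WT), in KO1 (0.39) and in KO2 (0.35) than in WT. FOXO3 was lower in KO1 than in WT (−0.42) and higher in KO2 than in KO1 (0.41), as was BAG3 (0.44), which was also higher in KO2 than in WT (0.33). DYNLL2, which encodes the light chain that holds BMF, was lower in KO2R than in KO2 (−0.72, adjusted p = 3.54e-09), and BNIP3L, a relative that acts in removal of mitochondria, was higher (0.76, adjusted p = 3.35e-08). Across genes, log2 fold changes ran lower in longer transcripts in KO1 against WT (Spearman rho −0.371) as in KO2R against KO2, and the part of transcript length in these values was not tested.

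The genes whose pattern over libraries came closest to the member with the widest range of group means were taken as the smallest root mean square difference of centred log2 values. For BMF in OPM2, over 15 libraries, they were IL10RA (0.24), FGF21 (0.26) and H1FX (0.28). IL10RA averaged 5.81 FPKM in KO1, 6.68 in KO2, 6.85 in KO1EV and 10.6 in KO1R, against 12.8 in WT. Replicate 3 of KO2, at 2.45, and of KO1EV, at 5.43, lay below the others, and the means without it were 8.80 and 7.57. For BCL2 in Delta47, over 12 libraries, they included TNN (0.16) and TRIM9 (0.18), and TRIM9 averaged 4.74 in KO1, 1.67 in KO2 and 1.60 in KO2R, against 3.66 in WT. These libraries share clones and vectors, and the likeness is a description with no test.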

How the data were processed

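Per the labels' protocols, FOXM1 exon 2 was cut in OPM2 and Delta47 cells with Cas9 ribonucleoprotein, single clones were grown and checked by Western blot and sequencing, and a FOXM1c lentivirus was added to knockout cells that were then sorted for GFP. Paired reads of 100 bases were made from poly-A RNA on a DNBSEQ instrument, and the submitters' processing notes name hg19; for the aligner and counter, no name is given in the sources used. The deposited OPM2 values are FPKM, per the file headers. The deposited Delta47 table names no unit, so its values were treated as a signal. Of 30 libraries 27 were used; 3 Delta47 columns matched no single sample, and the KO2R columns, which lack the clone number, were matched by the letter R that only those Delta47 samples carry. Gene symbols that had become dates (23 and 24) got their names back.

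Each value was put on the log2(value + 1) scale without rescaling. A gene had to reach 1 in 3 or more libraries of its line to enter limma-trend (limma 3.58.1, R 4.3.3), where 1 model per line held every group; tests were moderated and two-sided, with Benjamini-Hochberg adjustment over all genes of a comparison. The fit was tested on simulated data. The alternatives were another pseudocount, no filter, quantile scaling, median centring, a length trend removed, a fit of the compared groups alone, a replicate block, each library left out, and the pair of OPM2 libraries left out (for the other apoptosis genes, ratios and likeness this was added after seeing the data). Same-numbered libraries deviated together most in OPM2 KO1 and WT (correlations 0.412, 0.152 and 0.209 over genes), and there the block changed no call. The correlations were 0.180, 0.0856 and 0.258 in KO1R and KO1EV, and 0.204, 0.0166 and 0.0787 in KO1R and WT. Every other comparison held a negative correlation. The members and lists were chosen with earlier results of these data known. Besides the members and FOXM1, genes named are, per comparison, the 3 called genes of the other-apoptosis list with the smallest adjusted p, and per line the 3 genes nearest to the member with the widest range of group means. A few genes that this rule names are not reported here.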

Additional observations from a re-analysis of the deposited data

Results flagged for a closer look

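The clones of a line differed in members by the test of that difference itself. In OPM2 the log2 difference of KO2 from KO1 was 0.32 for BCL2L1, 0.30 for MCL1 and −0.69 for BID. All 3 calls were lost when only these groups were fitted and without KO2 replicate 1, and BID ran between −1.04 and −0.47 with single libraries left out. In Delta47 it was −1.24 for BCL2, −0.79 for BCL2L1, −0.15 for MCL1, −0.62 for PMAIP1, −0.16 for BID and −0.16 for BAX.

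For 5 members the FOXM1c groups of the 2 lines lay on opposite sides of their knockout backgrounds, with no overlap of libraries in either line. Of the 10 members, 7 did not overlap in KO1R against KO1EV and 9 in KO2R against KO2, in either direction. The matching share over all tested genes was not worked out, so 5 cannot be read as many or few. The log2 fold changes of KO1R against KO1EV in OPM2 and of KO2R against KO2 in Delta47 were 0.15 and −0.22 for MCL1, 0.29 and −0.21 for BCL2L11, 1.12 and −0.27 for BMF, −0.41 and 0.19 for BID, and −0.28 and 0.18 for BAK1. PMAIP1 lay above its background in both lines (0.45 and 0.52) and BAX below it in both (−0.16 and −0.17), also with no overlap. Neither of them was called in OPM2 (adjusted p = 0.399 and 0.592 in limma). In OPM2, MCL1 (adjusted p = 0.255), BID (adjusted p = 0.262) and BAK1 (adjusted p = 0.321) were not called by limma in the fit of all groups. BID was called when only KO1R and KO1EV were fitted (adjusted p = 0.0327). Without the pair of libraries that stood apart, MCL1 and BID were called (adjusted p = 0.0277 and 0.00504). In Delta47 the calls of BCL2L11 (−0.05), BMF (−0.13) and BAK1 (0.12) were lost with the length trend removed, and that of BMF also with median centring (−0.17). The difference between the lines was not tested. OPM2 was set against an empty vector and Delta47 against untransduced cells, so line and background cannot be told apart.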

How the results depend on the processing

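Over 1490 alternative values of single members, 676 belonged to called members, of which 620 kept direction and call, 55 lost the call and 1 turned its sign. The other 814 belonged to members not called, of which 39 became called in the same direction, 8 became called in the other direction and 44 turned sign with no call. With the 2 OPM2 libraries left out, the count of members called became 8 in KO2 against WT (from 2), 8 in KO2 against KO1 (from 3), 4 in KO1EV against KO1 (from 0), 4 in KO1R against KO1EV (from 2), 4 in KO1R against WT (from 2) and 6 in KO1 against WT (from 4). Among members then called, signs turned for BID (−0.26), BAX (−0.23) and BAK1 (−0.20) in KO2 against WT, for BMF (0.13) and BAK1 (−0.21) in KO2 against KO1, and for BMF (0.15) in KO1EV against KO1; leaving out single libraries of KO2 and WT gave −0.26 to 0.31 for BID and −0.23 to 0.23 for BAX, the lowest without KO2 replicate 3. A fit of the compared groups alone estimates the spread from those groups only, and from fewer libraries. It gave counts of 0 in KO2 against WT, 0 in KO2 against KO1, 1 in KO1EV against KO1 and 4 in KO1R against WT. It also newly called MCL1 (adjusted p = 0.029) and BAX (adjusted p = 0.0372) in OPM2 KO1 against WT, and BID in KO1R against KO1EV (adjusted p = 0.0327). The SE of BMF was 0.05 in OPM2 KO1 against WT and 0.30 in KO2 against WT, beside 0.23 in the fit of all groups. Quantile scaling gave 1 in KO1EV against KO1. Leaving out each library of the compared groups in turn gave 2 to 3 in OPM2 KO1 against WT, 2 to 6 in KO2 against WT, 0 to 5 in KO2 against KO1, 0 to 0 in KO1EV against KO1, 1 to 2 in KO1R against KO1EV and 2 to 2 in KO1R against WT. In Delta47 the same gave 8 to 9 in KO1, 6 to 7 in KO2 and 9 to 9 in KO2R against WT, 5 to 6 in KO2 against KO1 and 7 to 9 in KO2R against KO2. The replicate block gave 4, 2, 3, 0, 2 and 2 members called in the OPM2 comparisons and 9, 6, 6, 7 and 9 in those of Delta47, and it ended 1 call, BBC3 in Delta47 KO2 against WT (0.21, adjusted p = 0.0553). In that comparison same-numbered libraries correlated at −0.0425, 0.0316 and 0.0844 over genes. Removal of the length trend turned BAX in Delta47 KO1 to −0.029. Scaling shifted the median of all genes by less than 0.1 (log2), but moved the split of all calls: median centring gave 3961 higher and 2852 lower in KO2R against KO2, 2006 and 2313 in Delta47 KO2 against WT, 1898 and 2576 in Delta47 KO2 against KO1, 851 and 729 in KO1R against WT and 484 and 266 in KO1R against KO1EV, and quantile scaling gave 1080 and 1143 in OPM2 KO1 against WT and 1575 and 1618 in OPM2 KO2 against KO1. The causes were not tested. Without read counts, what depth limits for low members such as BBC3 in OPM2 and BCL2 in Delta47 is unknown.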
